A study of Arabidopsis thaliana with 48 samples.

Results

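The mitochondrial genome of Arabidopsis thaliana was represented by 22 probe sets of 15 genes among the 22810 probe sets of the Affymetrix ATH1 array. They were chosen by name, as probe sets whose single gene symbol was a nad, cox, atp or ccb gene, cob, matR or a numbered orf. The rule found 15 probe sets of 8 nad genes, 2 of cox genes, 4 of ccb genes and 1 of matR, and no atp, cob or orf probe set. A further 6 probe sets name a mitochondrial gene together with a second gene (among them atp1, atp9, cox3 and cob) and were not members. After 64 control probe sets were left out, 22746 were tested.

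The series compared wild type with gcn2, both in the line Landsberg erecta, as 10-day seedlings of which the aerial part was taken. Seedlings were submerged for 1 min in the herbicide chlorsulfuron (chlorosufuron in the labels) or in solvent alone, called mock here, and incubated for 2 h. The dose label reads 0.5 mM, whereas a 5 mM stock at a 10000-fold dilution is described elsewhere in the labels, and these do not match. No gcn2 allele is named. Total RNA and 3 pools of a sucrose gradient (non-polysomal RNA, small polysomes, large polysomes) were hybridised for the 4 groups of genotype and treatment, with 3 replicates each, which makes 48 arrays.

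Plant mitochondria keep a small genome that encodes core subunits of the respiratory chain, and most other subunits are encoded in the nucleus and imported. Their RNAs are made, edited and spliced inside the organelle and translated there by mitochondrial ribosomes, which are of the bacterial type. GCN2 is a kinase that binds uncharged tRNA and phosphorylates the cytosolic initiation factor eIF2alpha, and chlorsulfuron blocks acetolactate synthase, an enzyme of branched-chain amino acid synthesis in the plastid. A sucrose gradient separates RNA by the size of the complexes that hold it and does not tell mitochondrial from cytosolic ribosomes.

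The members fall into 4 roles. The nad genes encode subunits of complex I, the NADH dehydrogenase: nad1, nad2, nad4, nad4L, nad5 and nad6 belong to its membrane arm, and nad7 and nad9 to its peripheral arm. The genes cox1 and cox2 encode the catalytic core of complex IV, cytochrome c oxidase. The ccb genes serve cytochrome c maturation and are listed in RefSeq (assembly TAIR10.1) as ccmFN2 (ccb203), ccmB (ccb206), ccmFN1 (ccb382) and ccmFC (ccb452). The gene matR encodes a maturase, a factor of intron splicing, and lies in an intron of nad1. All 15 genes matched RefSeq by symbol.

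Several limits of these probe sets bear on all values. The gene nad1 has 7 probe sets and nad5 has 2, and no source used here gives the stretch of these trans-spliced genes that each one covers. Of the 22 members, 4 (ccb452, matR, nad6 and nad5 257338_s_at) carry the suffix _s_at, which marks probes shared by several transcripts. A nuclear chromosome of Arabidopsis carries a copy of mitochondrial DNA, and its RNA could not be told apart from that of the organelle. In plant mitochondria poly(A) tails mark RNA for decay, and no source used here gives the primer used for labelling. Fewer mitochondria, fewer cells and less RNA per mitochondrion cannot be told apart in such bulk samples.

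Signals are deposited as log2 values. Of the 48 array medians all but 1 lay between 6.145 and 6.311, and that of replicate 1 of wild-type mock large polysomes was 5.668. The wild-type mock large polysome arrays stood apart, with a spread of probe sets around the mean of their group (SD) of 0.417, 0.363 and 0.583, against at most 0.29 on every other array. In replicate 3 of these, cox1 read 7.83 against 9.91 and 9.41 in the other two. Results on wild-type gradients are therefore also given without the gradients of replicate 3. The 5 green-tissue marker genes had no probe set of their own name, and of 4 root markers AT3G09260, a beta-glucosidase of ER bodies, read 9.98 to 10.99 in total RNA while the other three stayed at or below 3.62. No probe set was named for GCN2, so the genotype could not be checked.

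In total RNA the members covered most of the range of the array. The cox1 probe set was the brightest member, with a mean of 10.21 ± 0.51 (SD, n = 12 arrays), above 93.6% of the tested probe sets. It was followed by ccb382 (7.77 ± 0.42), nad5 257338_s_at (7.72 ± 0.59), nad4 (6.78 ± 0.44), ccb452 (5.83 ± 0.45), nad1 257323_at (5.62 ± 0.63) and cox2 (5.04 ± 0.55). Neighbours in this order differed by less than the larger of their SDs for ccb382 and nad5 257338_s_at, for ccb452 and nad1 257323_at, and for nad1 257323_at and cox2. These are signals of different probe sets, so their order is not an order of RNA amounts. The dimmest were nad1 257322_at and nad1 257327_at, both at 2.48. Lower quartiles of the arrays ran from 3.44 to 3.83, and 9 of the 22 members were below it on at least 24 of the 48 arrays, where a difference is uncertain in size. Only ccb382, ccb452, cox1, nad4 and nad5 257338_s_at were above it on all 48.

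**Figure D1:**
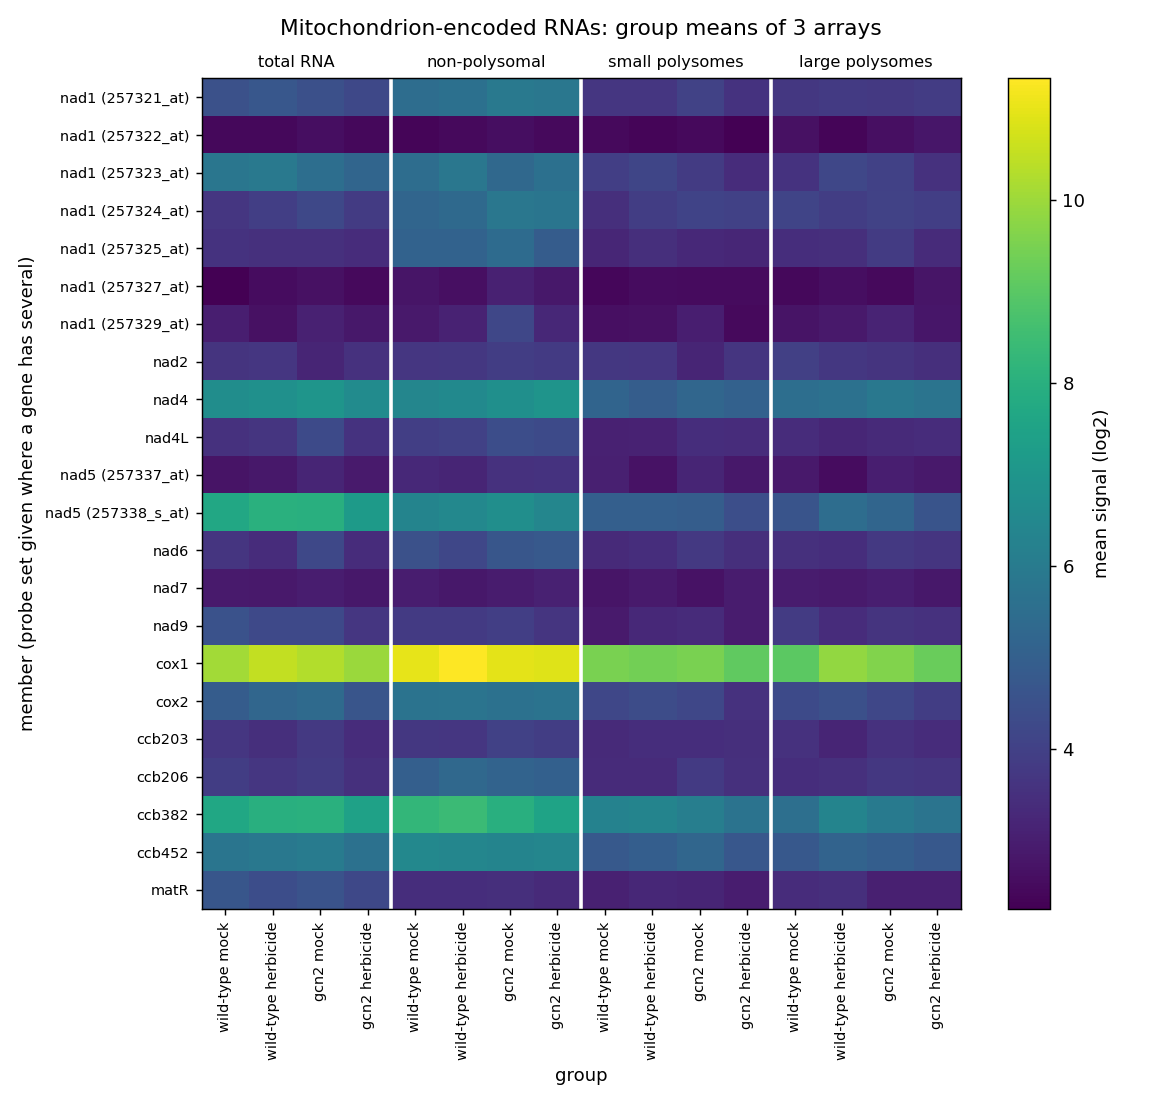
Mean signal (log2, colour) of each of the 22 members (rows, by role) in the 16 groups (columns, n = 3 arrays each), in blocks of total RNA, non-polysomal RNA, small and large polysomes. cox1 is the brightest row, and the polysome blocks are darker than the non-polysomal block for most of the bright rows.

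The main measurement on these RNAs was where they lay in the gradient. Polysome loading averages a gradient's small and large polysome signals and subtracts its non-polysomal signal, with each array centred on its median, so that 0 is the median probe set. Relative to the median RNA, most mitochondrion-encoded RNAs were lower in polysomes than in the non-polysomal pool in all 4 groups. In wild-type mock 12 of 22 members were lower in polysomes and none higher, where 11.7% of all tested probe sets were lower and 33.3% were called in either direction (limma, Benjamini-Hochberg adjusted p under 0.05, as in all calls here). Members lower in polysomes numbered 14 in wild-type herbicide (13.8% of all), 15 in gcn2 mock (12.7% of all) and 15 in gcn2 herbicide (11.8% of all), again with none higher. In either direction 30%, 29.3% and 27% of all tested probe sets were called in these 3 groups. Without the wild-type gradients of replicate 3 the wild-type counts were again 12 and 14. The median member stood at -0.90 in wild-type mock, -1.03 in wild-type herbicide, -1.11 in gcn2 mock and -1.30 in gcn2 herbicide, beside medians over all tested probe sets of 0.17, 0.02, 0.05 and 0.02.

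The same 12 members were called lower in polysomes in all 4 groups, with values between -2.18 and -0.74. They were 7 of the 15 complex I probe sets, both complex IV probe sets and 3 of the 4 cytochrome c maturation probe sets. Averaged over the 12 gradients, their non-polysomal signal was 1.91-fold (nad6) to 3.93-fold (ccb382) the polysomal one, each relative to its array's median. A further 4 members were called in 1 to 3 groups (nad4L, nad5 257337_at, nad1 257327_at and nad1 257329_at). The remaining 6 were called in no group, and 5 of them were among the dim members (ccb203, matR, nad1 257322_at, nad7 and nad9). The exception by this cutoff was nad2, which was itself below the lower quartile on 19 of 48 arrays.

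Among cytochrome c maturation genes, ccb382, a part of the haem lyase, had the lowest loading of all members in wild-type mock. Its values were -1.89, -1.88 and -2.76 in wild-type mock, -2.27, -1.99 and -1.99 in wild-type herbicide, -2.17, -1.31 and -2.14 in gcn2 mock, and -1.60, -1.36 and -2.31 in gcn2 herbicide. Every gradient was below -1.3, and the 4 groups overlapped. The fitted levels were -2.18, -2.08, -1.87 and -1.76 (SE 0.21, limma adjusted p from 1.92e-06 to 1.92e-05).

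The gene ccb206 encodes CcmB, a membrane part of a transporter of the cytochrome c maturation pathway. Its loading was -1.87, -1.38 and -1.07 in wild-type mock, -2.41, -1.46 and -1.74 in wild-type herbicide, -1.72, -0.93 and -1.37 in gcn2 mock, and -1.42, -1.44 and -1.33 in gcn2 herbicide. All 12 gradients were below 0. For ccb452, another part of the haem lyase, the values ran from -1.92 to -0.91 and again all 12 lay below 0. The fourth, ccb203, stayed between -0.94 and 0.20 and was called in no group. It was below the lower quartile on 29 of 48 arrays.

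For complex IV, cox2, whose product receives electrons from cytochrome c, had loading values of -1.23, -1.20 and -1.43 in wild-type mock and -1.75, -1.36 and -0.85 in wild-type herbicide. In gcn2 they were -1.71, -1.16 and -1.42 in mock and -1.91, -1.63 and -2.32 in herbicide. The gcn2 herbicide gradients all lay below those of wild-type mock, while they overlapped those of wild-type herbicide and of gcn2 mock. The fitted levels were -1.28, -1.32, -1.43 and -1.95 (SE 0.17).

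The bright cox1, the catalytic subunit, had loading between -2.23 and -1.09 over the 12 gradients. In non-polysomal RNA its signal was 11.62, 10.61 and 10.80 in wild-type mock, 11.72, 11.00 and 11.29 in wild-type herbicide, 11.68, 10.35 and 10.86 in gcn2 mock, and 11.16, 10.17 and 11.39 in gcn2 herbicide. Its small polysome signal ran from 8.48 to 10.14. No array of small polysomes reached the lowest non-polysomal array, at 10.17, and cox1 was above the lower quartile on all 48 arrays. In large polysomes 1 array, of gcn2 herbicide, was higher, at 10.25.

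Among complex I genes, nad1 257323_at had loading of -1.63, -1.17 and -1.92 in wild-type mock, -1.79, -1.41 and -1.80 in wild-type herbicide, -1.60, -1.09 and -1.45 in gcn2 mock, and -2.24, -1.89 and -2.18 in gcn2 herbicide. The gcn2 herbicide gradients lay below all those of gcn2 mock and of wild-type herbicide and overlapped those of wild-type mock. The fitted levels were -1.57, -1.67, -1.38 and -2.10 (SE 0.16), and the herbicide response of loading was not called, as given further on. For nad4 the values were -0.96, -0.81 and -0.92 in wild-type mock, -1.68, -0.82 and -1.22 in wild-type herbicide, -1.49, -1.06 and -0.95 in gcn2 mock, and -1.21, -1.84 and -1.40 in gcn2 herbicide. All of these were below 0 as well.

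The probe sets of a single gene did not read alike. Of the 7 nad1 probe sets, 4 were lower in polysomes in all 4 groups, with mean loading over the 12 gradients of -1.55 (257324_at) to -1.89 (257321_at). The other three had means of 0.09 (257322_at), -0.22 (257327_at) and -0.51 (257329_at), and each was below the lower quartile on at least 45 of 48 arrays. For nad5 the bright 257338_s_at averaged -1.53 and the dim 257337_at averaged -0.45. In RefSeq gene order cox2 lies next to ccmB (ccb206) and ccmFC (ccb452) next to nad4, and the mean loading of these neighbours was -1.50 and -1.51, and -1.44 and -1.20. Other members that are neighbours had unlike means, with -0.09 for nad2 and -0.93 for nad6, and -0.18 for matR, -1.53 for nad5 257338_s_at and -0.02 for nad7. Of these, nad7 was below the lower quartile on 48 of 48 arrays, matR on 34, nad6 on 23 and nad2 on 19. Their means are therefore uncertain in size, and a difference in loading between these neighbours is not shown. For nad1, which RefSeq lists next to cox1 (-1.57), the means depended on the probe set.

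**Figure D2:**
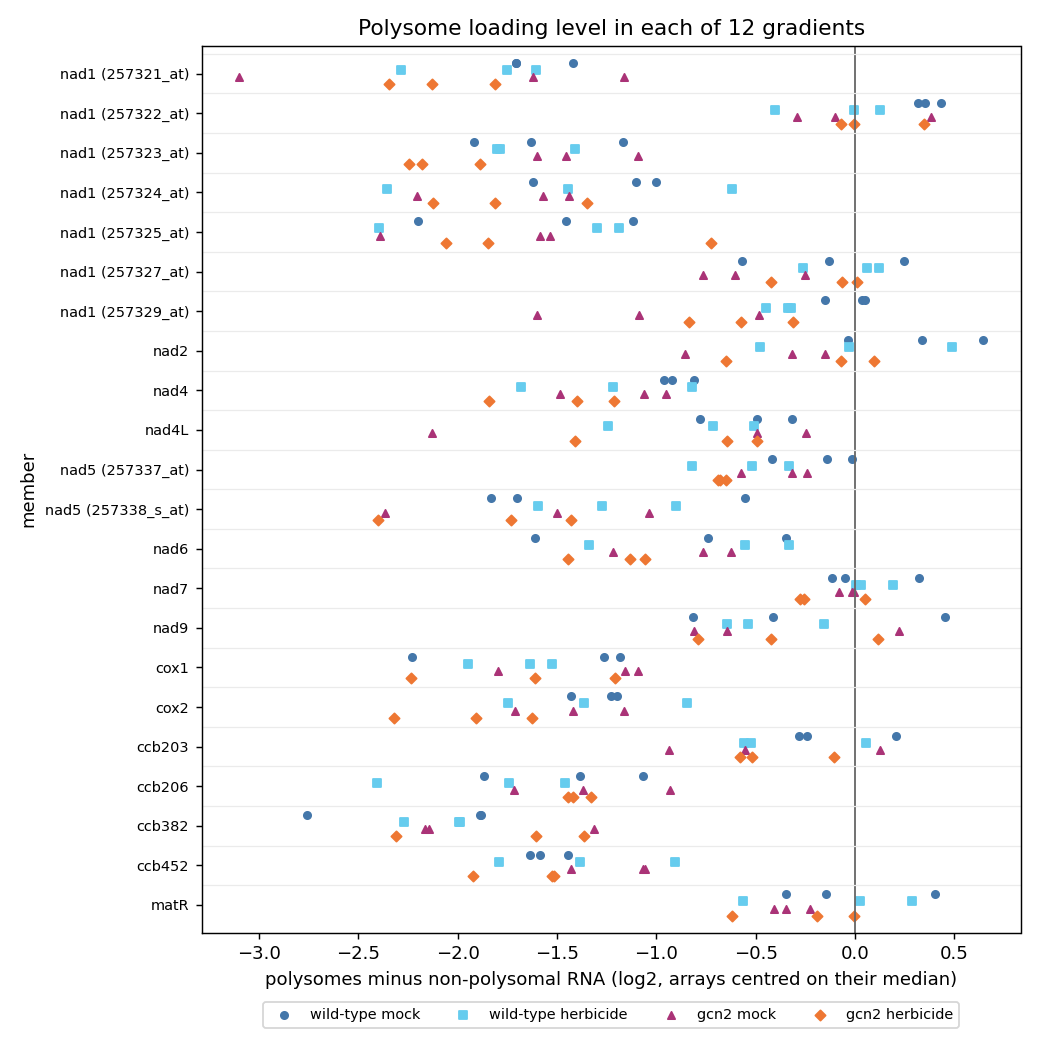
Polysome loading level (log2, x axis; 0 is the median probe set) of each member (rows) in each of the 12 gradients, coloured by group (3 gradients each). For 14 of the 22 members all 12 gradients lie below 0, and ccb382 lies below -1.3 in every one.

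Nuclear genes of respiration, whose RNAs are read by cytosolic ribosomes, were called in both directions. From lists of 95 nuclear genes, 50 genes had a probe set of their own (51 probe sets). In polysome loading 12 were higher and 4 lower in wild-type mock, 7 and 8 in wild-type herbicide, 17 and 4 in gcn2 mock, and 21 and 2 in gcn2 herbicide. Over all tested probe sets 21.6%, 16.2%, 16.6% and 15.2% were higher, and 11.7%, 13.8%, 12.7% and 11.8% lower. The nuclear counts were near these shares in wild type, and in gcn2 the share of higher ones was well above that of the array. The alternative NADH dehydrogenase genes NDB1 and NDB2 were called higher in polysomes in all 4 groups, with values of 0.87 to 1.39 and 0.86 to 1.13. SDH1-1, a succinate dehydrogenase subunit of complex II, stood at 0.94 in wild-type mock and 1.35 in gcn2 mock. Lower in polysomes was AT3G08610, a small complex I subunit, at -0.85 in wild-type mock and -1.54 in gcn2 herbicide.

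RNAs of the other organelle, the plastid, are the closest comparison. The median of 50 plastid-encoded probe sets was -0.34 in wild-type mock, -0.34 in wild-type herbicide, -1.30 in gcn2 mock and -1.64 in gcn2 herbicide, and 13, 12, 36 and 45 of them were lower in polysomes. In wild type the mitochondrial medians were thus the lower ones, and in gcn2 the plastid medians. The difference between the sets of genes was not tested.

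Herbicide and genotype did not shift the loading of any member past the threshold. In the herbicide response of wild type and of gcn2, the interaction, and gcn2 minus wild type in mock and in herbicide, limma called 0 of 22 members. Unadjusted p was under 0.05 for 0, 1, 2, 2 and 1 members. Over all tested probe sets 0%, 0.0484%, 0%, 0.00879% and 0.141% were called, so calls were rare for any RNA here. Medians of the members were -0.001, -0.04, -0.04, -0.13 and -0.23. The plastid-encoded set had medians of 0.13, -0.35, -0.41, -0.58 and -1.13 in the same order. Comparisons that share groups are not independent of each other.

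Within polysomes few members differed between large and small ones. The large minus small polysome level was called for 3 members in wild-type mock, all higher in large polysomes, and for none in the other 3 groups, where 28.1%, 19.2%, 18.2% and 18.9% of all tested probe sets were called in either direction. The 3 were nad9 (1.12 ± 0.24 SE, limma adjusted p = 0.0043), nad1 257324_at (0.82 ± 0.24) and nad4L (0.50 ± 0.15). These values come from the wild-type mock large polysome arrays that stood apart. Without the wild-type gradients of replicate 3, 1 member was called, and with array weights none. Without centring 3 were called, among them ccb382 as lower in large polysomes (-0.72, limma adjusted p = 0.024). When wild-type mock replicate 1 was left out, ccb382 was again lower (-0.90, limma adjusted p = 0.0072) and nad1 257325_at higher (0.71). The direction and the members called thus depended on these arrays and on the centring. In the other groups 1, 2 and 3 members had an unadjusted p under 0.05. For nad4 large polysomes exceeded small ones in 12 of 12 gradients, by 0.02 to 1.35, and its fitted values were 0.54, 0.66, 0.61 and 0.62 (SE 0.23), with adjusted p of 0.089, 0.058, 0.084 and 0.078. Of the 51 probe sets of nuclear respiration genes described above, 20 were lower and 5 higher in large polysomes in wild-type mock. The counts were 22 and 6 in wild-type herbicide, 22 and 6 in gcn2 mock, and 23 and 5 in gcn2 herbicide. Over all 22746 tested probe sets 2507, 2389, 2366 and 2540 were lower and 3881, 1975, 1773 and 1750 higher, in the same order. The share of lower ones was thus above that of the array in each group, and this difference was not tested.

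Compared with total RNA, the non-polysomal pool held more of some members and less of others. In this comparison 7 members were called in wild-type mock (4 higher and 3 lower in non-polysomal RNA), 5 in wild-type herbicide (3 and 2), 8 in gcn2 mock (6 and 2) and 8 in gcn2 herbicide (7 and 1). These counts stand beside 31.6%, 32.1%, 31.9% and 33.8% of all tested probe sets called in either direction, so in the main fit the share of members was near that of the array. Non-polysomal and total arrays of a group that share a number deviated together in 12 of 12 pairs (correlation over 0.1). An alternative, called the blocked fit here, gave arrays of the same replicate number a shared term across groups and RNA types. Those pairs within a group are not modelled separately by it, so this check does not justify its added calls. Between groups, same-numbered non-polysomal arrays correlated over 0.1 in only 10 of 18 pairs, against 18 of 18 in total RNA. The blocked fit is therefore given only as an alternative. It called 13 members in wild-type mock (10 higher and 3 lower), 9 in wild-type herbicide (7 and 2), 10 in gcn2 mock (8 and 2) and 11 in gcn2 herbicide (10 and 1), where 37.3%, 37.5%, 37.5% and 40.3% of all tested probe sets were called. Every call of the fit without the block was also made with it. Without the wild-type gradients of replicate 3 the wild-type counts were 6 and 5.

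The members ccb206, nad1 257324_at and nad1 257325_at were higher in non-polysomal RNA in all 4 groups. For ccb206 total RNA read 4.21, 3.77 and 3.68 in wild-type mock, against 5.70, 4.88 and 4.44 in non-polysomal RNA. In gcn2 mock it read 4.10, 3.62 and 3.80 in total RNA against 5.69, 4.58 and 5.15. The arrays of both RNA types did not overlap in any of the 4 groups. The fitted differences for ccb206 were 1.07, 1.63, 1.28 and 1.49 (SE 0.36). For nad1 257324_at they were 1.47, 1.45, 1.61 and 1.91 (SE 0.30), and for nad1 257325_at 1.48, 1.61, 1.93 and 1.46 (SE 0.40). In total RNA nad1 257325_at was below the lower quartile on 7 of 12 arrays, ccb206 on 3 and nad1 257324_at on 1. The size of these differences is therefore uncertain, most of all for nad1 257325_at.

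The maturase RNA went the other way in all 4 groups. In total RNA matR read 4.70, 4.92 and 4.39 in wild-type mock, 4.53, 5.17 and 3.52 in wild-type herbicide, 5.44, 4.39 and 3.85 in gcn2 mock, and 4.78, 3.94 and 3.87 in gcn2 herbicide. Its non-polysomal signal was between 3.10 and 3.78 on all 12 arrays, and it was below the lower quartile on 10 of them. The groups of arrays overlapped in wild-type herbicide only, and the fitted differences were -1.28, -0.94, -1.10 and -0.89 (SE 0.34, limma adjusted p from 0.0055 to 0.047). In polysomes matR read 2.72 to 3.79, so it was dim in each pool of the gradient.

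A similar deficit was seen for nad5 257338_s_at, a bright complex I probe set. Total RNA read 7.26, 8.15 and 7.69 in wild-type mock against 5.97, 6.71 and 6.31 in non-polysomal RNA, and 8.39, 7.85 and 7.71 in gcn2 mock against 7.41, 5.90 and 6.95. The fitted differences were -1.42, -1.52, -1.25 and -0.80 (SE 0.38), and the last, in gcn2 herbicide, was not called (adjusted p = 0.11). Its other probe set, nad5 257337_at, was called higher in non-polysomal RNA in wild-type mock (0.55) and gcn2 herbicide (0.64). The 2 probe sets of this gene thus had opposite signs.

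Other members were called in some groups. nad9 was lower in wild-type mock (-0.79), nad6 and cox2 were higher in gcn2 herbicide (1.39 and 1.05), and nad1 257321_at was higher in both gcn2 groups (1.43 and 1.62). In gcn2 mock nad1 257329_at (1.09) and nad2 (0.71) were higher. For cox1 the differences were 0.89, 0.84, 0.65 and 0.91 (SE 0.39), with limma adjusted p between 0.076 and 0.22. In the blocked fit cox1 was higher in non-polysomal RNA in all 4 groups (SE 0.21, adjusted p of 0.0017, 0.0029, 0.018 and 0.0014), and same-numbered arrays differed by 0.49 to 1.33 in 12 of 12 pairs. The blocked fit also called nad1 257321_at higher in all 4 groups, and ccb452 (0.65, 0.57 and 0.78) and nad6 (0.80, 0.80 and 1.39) in wild-type mock, wild-type herbicide and gcn2 herbicide. It added nad1 257327_at in both mock groups (0.45 and 0.42), cox2 in wild-type mock (0.77) and nad4L in gcn2 herbicide (0.69). No call was added for nad5 257338_s_at in gcn2 herbicide, although its non-polysomal array was the lower one in 12 of 12 pairs over the groups.

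**Figure D3:**
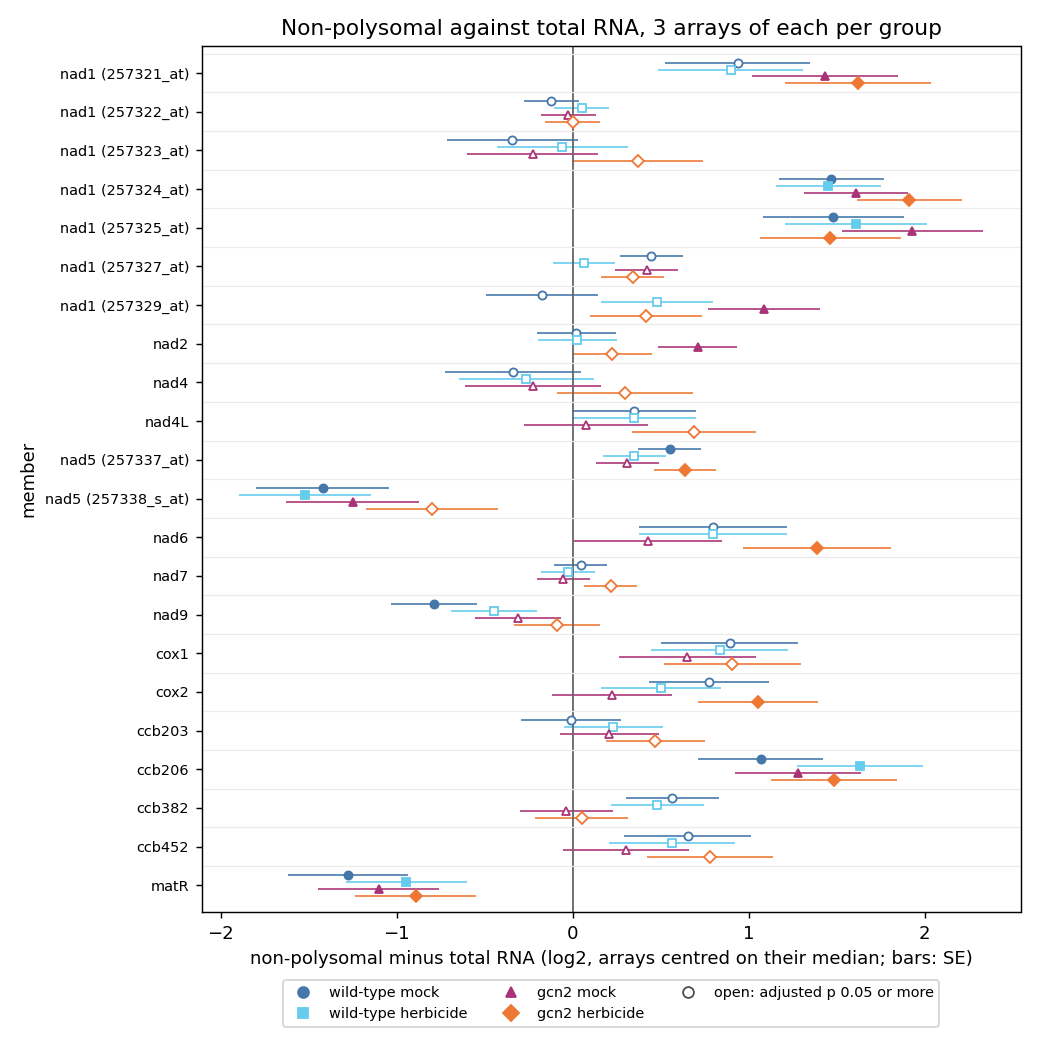
Non-polysomal minus total RNA (log2, x axis) for each member (rows) in the 4 groups, with bars of 1 SE (n = 3 arrays of each RNA type per group) and filled symbols for adjusted p under 0.05, in the fit without the replicate block. ccb206, nad1 257324_at and nad1 257325_at lie right of 0 and matR left of 0, filled in all 4 groups.

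In total RNA, no mitochondrial RNA of wild type was called after herbicide, and in gcn2 a single member fell. limma called 0 of 22 members in wild type (none at an unadjusted p under 0.05), where 6.73% of all tested probe sets were called. In gcn2 1 of 22 was called, where 11.5% of all tested probe sets were, and 4.87% were lower. The members' median response was 0.09 in wild type, with 9 of 22 below 0, and -0.34 in gcn2, with 21 of 22 below 0. All tested probe sets had medians of -0.02 and -0.06. The 50 plastid-encoded probe sets had medians of 0.05 and -0.19, with 18 and 42 of them below 0, so a lean below 0 in gcn2 was not particular to the members.

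The member that fell in gcn2 was nad4L, a small membrane subunit of complex I. Its total RNA read 4.72, 4.06 and 4.08 in gcn2 mock and 3.77, 3.24 and 3.72 in gcn2 herbicide, so that the gcn2 groups did not overlap. In wild type it read 3.57, 3.63 and 3.45 in mock and 4.05, 3.56 and 3.37 in herbicide, which did overlap. The gcn2 response was -0.71 ± 0.20 (SE, limma adjusted p = 0.033), at a signal near the lower quartile. Without gcn2 mock replicate 1 it was -0.49 and without gcn2 herbicide replicate 2 it was -0.54, and neither passed (adjusted p = 0.16 in both).

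For cox2 total RNA read 6.19, 4.92 and 5.10 in gcn2 mock and 5.21, 4.30 and 4.40 in gcn2 herbicide, and 4.97, 5.02 and 4.66 and 5.85, 5.28 and 4.63 in wild type. The response was -0.76 ± 0.33 in gcn2 (adjusted p = 0.16). For nad6 it was -0.84 ± 0.34, for nad5 257338_s_at -0.80 ± 0.34 and for nad9 -0.54 ± 0.17 (adjusted p = 0.051). None of these passed the threshold.

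Replicate numbers paired the samples in total RNA, so the fit with the replicate as a block stands beside these counts. It called 0 members in wild type and 4 in gcn2 (nad4L, nad9, cox2 and nad6, all lower), where 16% and 21.7% of all tested probe sets were called. With gcn2 samples set against each other by number, 16 of 22 members were lower with herbicide in 3 of 3 replicates. In wild type 2 of 22 were. The share over all tested probe sets was not counted. Members deviated together on single arrays, as given below, so they are not separate observations.

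The response of gcn2 differed from that of wild type by a median of -0.45 over the members, with 20 of 22 below 0 and -0.02 over all tested probe sets, and no member was called (1.53% of all tested probe sets were, and 6 members had an unadjusted p under 0.05). In the plastid-encoded set the median difference was -0.27, with 46 of 50 below 0 and none called. In the blocked fit 2 members passed, nad4L (-0.82, adjusted p = 0.041) and cox2 (-1.13, adjusted p = 0.028), where 4.62% of all tested probe sets did.

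These medians depended on single arrays on which most members deviated together. In total RNA the replicate 1 array was the highest of its 3 for 68 of 88 combinations of member and group, and likewise for 68 of 88 in non-polysomal RNA. The median member stood 0.43 above its group mean in gcn2 mock replicate 1 and -0.30 from it in gcn2 herbicide replicate 2, while the median over all tested probe sets was 0.002 and -0.007 from it. Without gcn2 mock replicate 1 the median gcn2 response was -0.10 and the median interaction -0.11. Without gcn2 herbicide replicate 2 they were -0.14 and -0.24, and without wild-type herbicide replicate 1 the median interaction was -0.19. In wild type the median response was -0.11 without wild-type herbicide replicate 1.

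**Figure D4:**
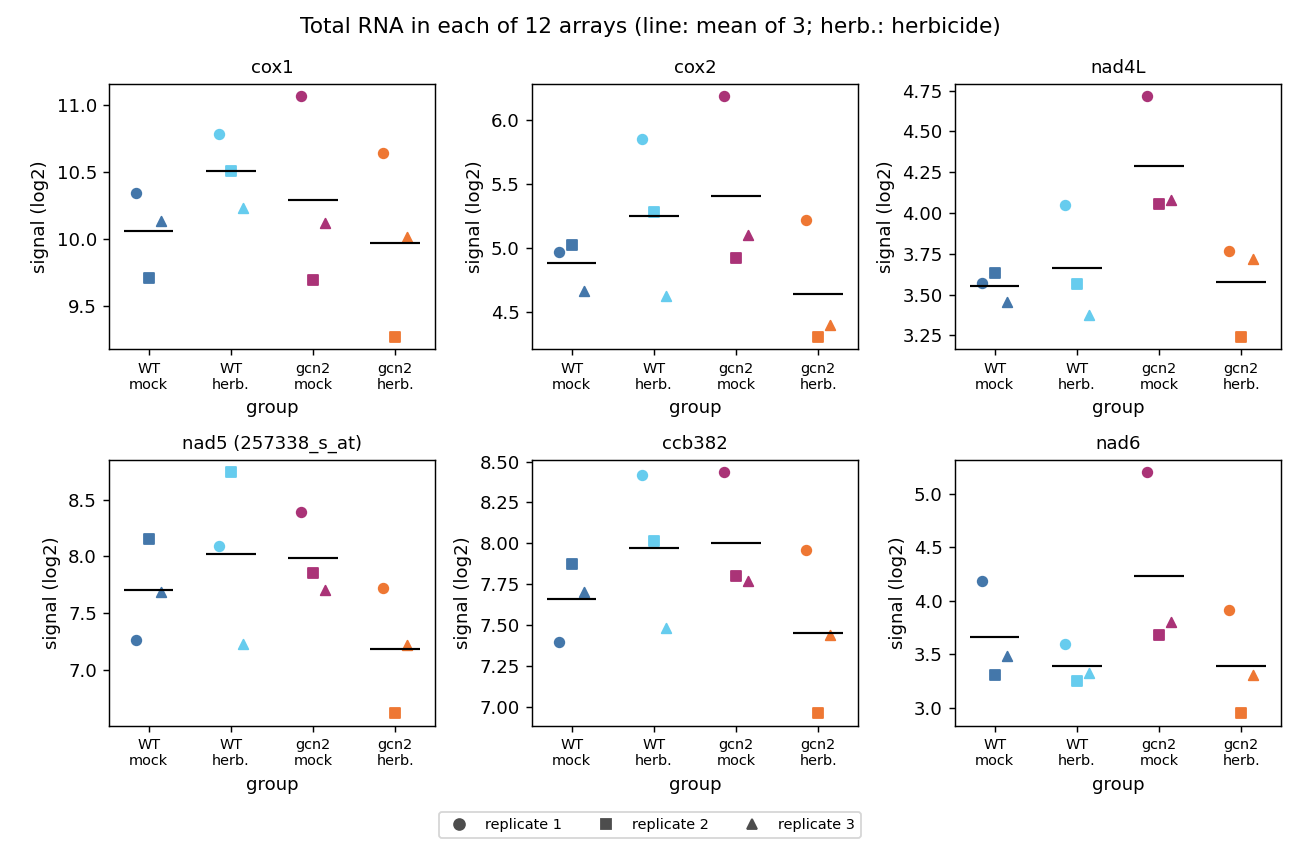
Total RNA signal (log2, y axis, ranges differ between panels and do not start at 0) of 6 members in each of the 12 arrays, by group (colour) and replicate (symbol), with a line at the mean of 3. In gcn2 mock, replicate 1 is the highest array in all 6 panels.

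**Figure D5:**
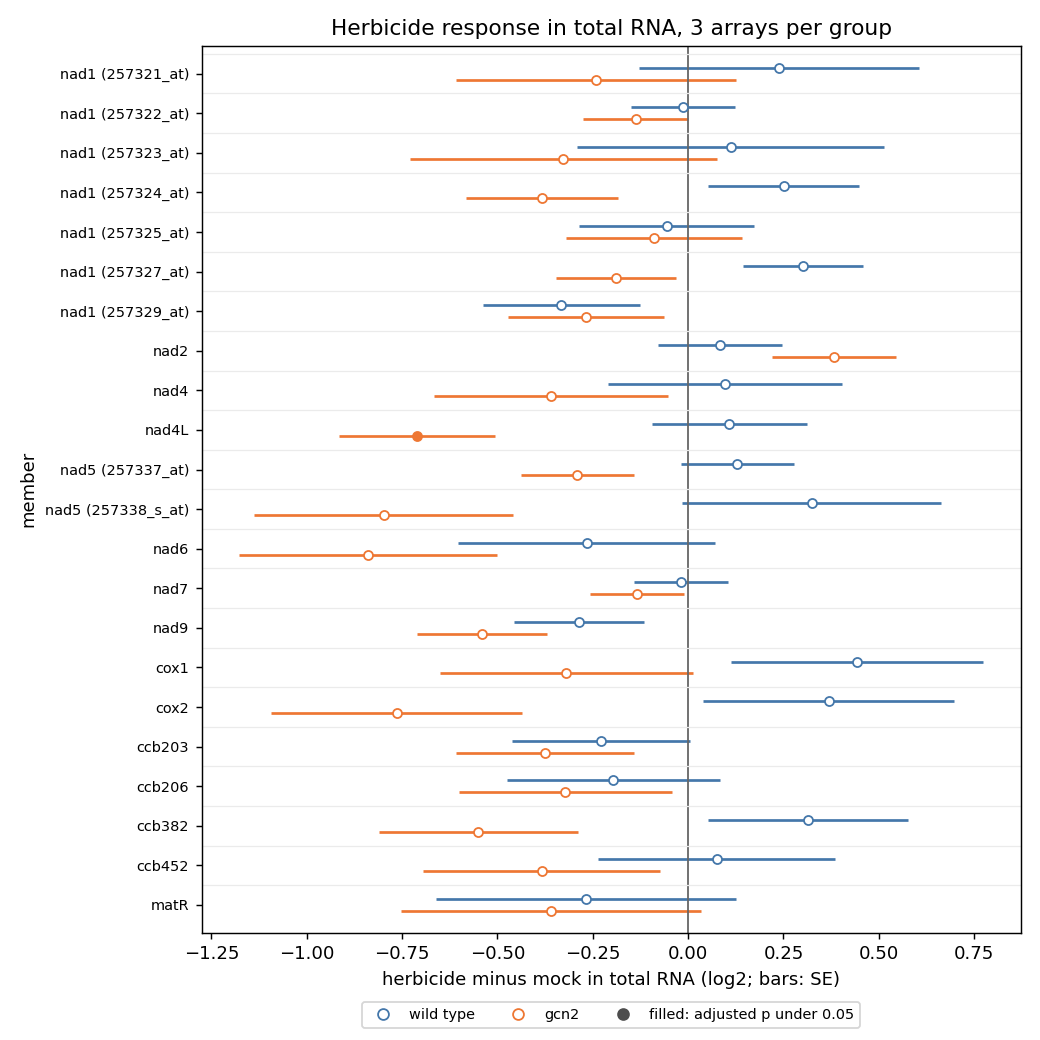
Herbicide minus mock in total RNA (log2, x axis) of each member (rows) in wild type and gcn2, with bars of 1 SE (n = 3 arrays per group). In gcn2 21 of 22 members lie left of 0, and only nad4L is filled (adjusted p under 0.05).

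Between genotypes no member was called in total RNA in the main fit. In mock limma called 0 of 22 members, with a median of 0.19 (5 members at an unadjusted p under 0.05, 0.136% of all tested probe sets called), and the median became -0.07 without gcn2 mock replicate 1. With herbicide limma called 0 of 22, with a median of -0.16 (2 members at an unadjusted p under 0.05, 4.49% of all called). That median was 0.03 when replicate 1 of wild-type herbicide was left out and 0.006 when replicate 2 of gcn2 herbicide was. In the blocked fit nad4L was higher in gcn2 in mock (0.73, adjusted p = 0.038; 0.717% of all called), and nad9 (-0.56) and nad1 257323_at (-0.70) were lower in gcn2 with herbicide (11.3% of all called).

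Few nuclear respiration genes were called in total RNA. In wild type 0 of 51 probe sets were called after herbicide, where 6.73% of all tested probe sets were. In gcn2 the alternative NADH dehydrogenase genes NDB4 (0.98) and NDB2 (0.60) rose and AT2G19680, a subunit of ATP synthase, fell by 0.55 on the log2 scale. In that response 11.5% of all tested probe sets were called. With herbicide NDB4 was also higher in gcn2 than in wild type (0.81), where 4.49% of all tested probe sets were called. None of the 51 was called in the interaction, where calls were rare over all tested probe sets as well (1.53%).

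In the gradient pools taken by themselves a single member was called. In non-polysomal RNA ccb382 was lower in gcn2 than in wild type with herbicide, at -0.92 ± 0.23 (SE, limma adjusted p = 0.024; 7.57% of all tested probe sets called, 4.2% as lower). It read 8.63, 8.30 and 8.40 in wild-type herbicide and 7.36, 7.22 and 8.00 in gcn2 herbicide, and these arrays did not overlap. In mock the non-polysomal values were 8.37, 8.27 and 8.19 in wild type and 8.43, 7.79 and 7.72 in gcn2, which did overlap. The value was -0.82 without wild-type herbicide replicate 1, -0.99 without wild-type herbicide replicate 2, -0.83 without gcn2 herbicide replicate 1 and -0.76 without gcn2 herbicide replicate 2, and it passed in none of these 4.

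No member was called in the other 4 comparisons of non-polysomal RNA, with 0, 1, 1 and 1 members at an unadjusted p under 0.05. The shares of all tested probe sets called there were 0% for the wild-type response, 5.62% for the gcn2 response, 1.06% for the interaction and 0.0747% for genotype in mock. In polysomal RNA limma called 0 members in all 5 comparisons, with 0, 2, 4, 1 and 5 members at an unadjusted p under 0.05, beside 0%, 4.77%, 0.409%, 0.0659% and 1.93% of all tested probe sets. The lowest polysomal difference between genotypes with herbicide was -0.72, for nad5 257338_s_at. With array weights 3 members passed there (nad5 257338_s_at, nad1 257323_at and cox2). The blocked fit called 1 there (cox2, -0.69, limma adjusted p = 0.036), where 3.29% of all tested probe sets were called.

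Among nuclear respiration genes, 10 of 51 probe sets were lower in gcn2 and 1 higher in the non-polysomal pool with herbicide. Over all tested probe sets 4.2% were lower there and 7.57% were called in either direction. The lowest were AT3G27240, of complex III, at -1.63 and AT5G47030, of ATP synthase, at -1.51.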

How the data were processed

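Each of the 48 arrays is 1 sample, and groups follow the labels (16 groups of 3). The deposited values are log2 signals per probe set. The authors made them with affy, and RMA and MAS5 are also named, per the submitters' processing notes, without versions. No source used here says whether the arrays were normalized as 1 set. Genes were named from the platform annotation: 13513 tested probe sets had 1 symbol, 503 several and 8730 none.

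Comparisons were fitted with limma 3.58.1 in R 4.3.3 on all 22746 probe sets, with Benjamini-Hochberg adjustment, at a threshold of 0.05. They had 4 group means (8 residual degrees of freedom), except for non-polysomal minus total RNA. That comparison was fitted on the arrays of both RNA types together. It had a mean for each group and RNA type, and thus more residual degrees of freedom. Levels in the gradient were tested against 0 after each array was centred on its median. No label says that replicates came from separate cultures, so p-values measure the spread between these samples. The number of arrays limits the precision. The members and gene lists were chosen with earlier results of these data known. Every member is accounted for, those past the threshold are named with values, and of nuclear genes up to 2 per list and direction.

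Replicate numbers paired the samples in total RNA, where same-numbered samples deviated together in 18 of 18 pairs (correlation over 0.1, mean 0.37), and between non-polysomal and total RNA of a group, in 12 of 12 pairs (mean 0.37). The latter check was added after the calls of both fits were known. It concerns pairs within a group, whereas the block is a term for the replicate number shared across groups. It therefore does not justify the block for non-polysomal minus total RNA. In simulated data with changes of 1 on the log2 scale in 100 probe sets of 22746, 87% were recovered for the gcn2 response in total RNA, 84% for polysome loading in gcn2 mock and 79% for non-polysomal minus total RNA in gcn2 mock. Those probe sets were drawn at random and given independent noise. The members deviated together by array, so these shares do not give the power for the members. Alternatives were the removal of dim probe sets, median centring or its omission, quantile normalization, array weights, the replicate block, each replicate left out, and, added after the data were seen, the wild-type gradients of replicate 3 left out.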

Additional observations from a re-analysis of the deposited data

Results flagged for a closer look

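With the replicate as a block, the herbicide response in total RNA differed between gcn2 and wild type, by a test of the difference itself, for 2 members. For nad4L the difference was -0.82 (limma adjusted p = 0.041), and for cox2 it was -1.13 (limma adjusted p = 0.028). In this fit 4.62% of all tested probe sets were called. In 3 of 3 same-numbered pairs both were lower with herbicide in gcn2, as were 16 of the 22 members, these included. For both, gcn2 mock replicate 1 was the highest of its 3 arrays, as it was for 20 of the 22 members. Neither passed in the fit without the block.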

How the results depend on the processing

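Counts of members called are given as the main value and then the alternative. In total RNA the gcn2 response went from 1 to 2 without dim probe sets, to 2 with centred arrays and to 4 with the replicate block, and lay between 0 and 2 with single replicates left out (0 without gcn2 mock replicate 1 or gcn2 herbicide replicate 2). With the replicate block the interaction went from 0 to 2, genotype in mock from 0 to 1 and genotype in herbicide from 0 to 2, the last between 0 and 1 with replicates left out. In non-polysomal RNA the gcn2 response went from 0 to 1 with array weights and with the replicate block, genotype in mock from 0 to 1 with the block, and genotype in herbicide from 1 to between 0 and 1 with replicates left out. In polysomal RNA genotype in herbicide went from 0 to 1 with quantile normalization, 3 with array weights, 1 with the block, 1 without the wild-type gradients of replicate 3, and between 0 and 1 with replicates left out. For large minus small polysomes, wild-type mock went from 3 to 0 with array weights and to 1 without the wild-type gradients of replicate 3. Without centring it stayed at 3, with ccb382, called lower, among them. Wild-type herbicide went from 0 to 1 without dim probe sets, 1 with quantile normalization, 2 with weights, 1 with the block, and between 0 and 1 with replicates left out; with weights gcn2 mock had 2 and gcn2 herbicide 1. For non-polysomal minus total RNA the replicate block gave 13 in place of 7 in wild-type mock and 9 in place of 5 in wild-type herbicide, where it called 37.3% and 37.5% of all tested probe sets in place of 31.6% and 32.1%; leaving out replicates gave 4 to 6, 3 to 5, 5 to 6 and 4 to 6 in wild-type mock, wild-type herbicide, gcn2 mock and gcn2 herbicide. The cause was not tested. Counts for polysome loading levels stayed within 1.5 times the main ones. Between groups of 1 gradient pool, 10 of 18 same-numbered pairs correlated over 0.1 in non-polysomal RNA and 4 of 18 in polysome loading. In polysomal RNA 15 of 18 did, with a mean of 0.29 against -0.15 for other numbers. Total RNA had 0.37 against -0.18, so the polysomal samples were largely paired as well. Of 748 values of single called members under an alternative, 689 stayed past the threshold, 59 did not and 0 changed sign. Signal near background limits the 9 dim members.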
